A study of Mus musculus with 8 samples.

Results

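The genes described here are 9 genes that mark medium spiny neurons, the projection neurons of the striatum: Drd1, Tac1 and Pdyn of the direct pathway, Drd2, Adora2a, Penk and Gpr6 of the indirect pathway, and Ppp1r1b and Rgs9, which both kinds of neuron express. They were taken by gene symbol from a table of read counts for 54532 genes, where each had a single entry, and all 9 were among the 16062 genes with enough counts to be tested. The table comes from RNA sequencing of brain (whole brain in the series text) of 3-month-old males, with 4 libraries labelled Nsun5-KO and 4 labelled WT (wild type). All mice were anaesthetised with pentobarbital sodium, and the labels speak of 5 Nsun5-KO and 5 wild-type mice born in 1 litter. Nsun5 is a methyltransferase of ribosomal RNA, and the study's title ties its loss to low myelin and short sleep. The sources used here do not describe the knockout allele, nor say that each library came from its own animal, so that p-values measure only the spread between libraries.

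Medium spiny neurons make up most of the striatum and are inhibitory. Neurons of the direct pathway carry the D1 dopamine receptor, which raises cyclic AMP (cAMP), and project to the output nuclei of the basal ganglia. Neurons of the indirect pathway carry the D2 dopamine receptor, which lowers cAMP, together with the adenosine receptor encoded by Adora2a, which raises it, and project to the external pallidum. That adenosine receptor is well known for its part in the control of sleep and waking. Several of the peptide genes are also expressed elsewhere in the brain, Tac1 and Pdyn in the hypothalamus and Pdyn in the dentate gyrus.

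Promoter sequences of 6 of the 9 genes were found in RefSeq (GRCm38.p6, the mm10 build), each spanning 250 bases before to 50 bases after the transcription start. Those of 2 direct and 2 indirect pathway genes are shown as examples of the 9 members, which all moved together across the libraries, as described below. Each is given 5′ to 3′ on the strand of its gene, and capitals mark the motifs that were searched on both strands: the half-site of the cAMP response element (TGACG), its full palindrome (TGACGTCA, which holds the half-site in both directions), the GC box (GGGCGG) and the TATA box (TATAAA).
Drd1, chr13:54055609-54055908, minus strand: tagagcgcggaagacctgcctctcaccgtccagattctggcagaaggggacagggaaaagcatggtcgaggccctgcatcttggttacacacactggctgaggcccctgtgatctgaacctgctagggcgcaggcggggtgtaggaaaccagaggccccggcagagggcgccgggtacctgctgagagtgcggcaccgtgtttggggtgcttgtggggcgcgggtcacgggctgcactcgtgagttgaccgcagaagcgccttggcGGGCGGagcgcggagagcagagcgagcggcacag
Tac1, chr6:7554811-7555110, plus strand: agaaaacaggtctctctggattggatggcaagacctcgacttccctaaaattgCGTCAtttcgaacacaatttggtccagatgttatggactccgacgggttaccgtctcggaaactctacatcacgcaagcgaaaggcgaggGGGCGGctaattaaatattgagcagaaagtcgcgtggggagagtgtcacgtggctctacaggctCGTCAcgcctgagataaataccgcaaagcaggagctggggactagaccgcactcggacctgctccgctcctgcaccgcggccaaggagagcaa
Drd2, chr9:49340153-49340452, plus strand: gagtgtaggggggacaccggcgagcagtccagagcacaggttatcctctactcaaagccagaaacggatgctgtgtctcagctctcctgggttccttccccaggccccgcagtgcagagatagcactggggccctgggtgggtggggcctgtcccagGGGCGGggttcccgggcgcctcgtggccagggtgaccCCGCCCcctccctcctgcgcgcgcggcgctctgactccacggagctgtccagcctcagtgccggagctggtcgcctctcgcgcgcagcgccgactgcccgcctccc
Gpr6, chr10:41072241-41072540, minus strand: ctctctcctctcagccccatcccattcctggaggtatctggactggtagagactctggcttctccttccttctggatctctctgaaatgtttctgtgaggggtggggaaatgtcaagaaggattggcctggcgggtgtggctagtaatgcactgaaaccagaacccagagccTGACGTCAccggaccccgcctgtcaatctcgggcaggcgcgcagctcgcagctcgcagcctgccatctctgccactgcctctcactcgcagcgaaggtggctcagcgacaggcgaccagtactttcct
The Gpr6 window held a full cAMP response element and the Tac1 window 2 separate half-sites, both on the opposite strand (CGTCA), while the Drd1, Drd2, Pdyn and Rgs9 windows held neither. Of 32851 RefSeq promoters of this length, 20.8% held the half-site and 1.79% the full element. A GC box was present once in Drd1 and Tac1 and at 2 places in Drd2 and Rgs9, against 35.7% of all promoters with at least 1. Rgs9 alone of the 6 held the TATA box letters, which 13.6% of all promoters held. These matches describe letters, not bound sites. The half-site occurred in 1 of 3 direct and 1 of 2 indirect windows. No window was found for Adora2a, Penk and Ppp1r1b. Drd1 and Pdyn had 2 entries each, of which the one nearest the annotated gene start was searched. So few windows cannot tell whether the motifs divide the pathways.

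The libraries held 16210943 to 17829523 counts in those labelled Nsun5-KO and 15642086 to 17378608 counts in WT. Nsun5 itself had 102, 124, 83 and 110 counts in replicates 1 to 4 labelled Nsun5-KO and 91, 82, 103 and 109 counts in WT (log2 fold change 0.13, SE 0.15, edgeR adjusted p = 0.817). The targeted gene's count therefore did not bear out the labels, and each direction given here is that of the labels. No pair of libraries of a group agreed within sampling noise (chi-square per degree of freedom 7.77 to 22.3). The first principal component, with 25.7% of the variance, lay at 5.3 to 23.8 in the libraries labelled Nsun5-KO. In WT replicates 1 to 4 it was -29.7, -36.0, 2.5 and 1.7. The second principal component, with 19.0% of the variance, set replicate 3 labelled Nsun5-KO (34.3) and WT replicate 1 (16.3) farthest from replicate 4 labelled Nsun5-KO (-21.1) and WT replicate 4 (-18.2).

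Levels per gene length were compared on the deposited FPKM scale, which divides counts by gene length and library size. Penk and Ppp1r1b stood far above the other members, at 134 ± 67.1 and 107 ± 50.8 FPKM over the 8 libraries (SD). Penk lay above Ppp1r1b in 7 of 8 libraries, and Ppp1r1b above Tac1, the next gene, in 8 of 8. Tac1 (19.0 FPKM), Adora2a (18.9), Drd2 (17.1), Drd1 (16.6) and Pdyn (15.9) did not differ from their neighbours beyond their spread, each neighbouring pair keeping its order in 4 or 5 of 8 libraries. Pdyn lay above Rgs9 (10.8 FPKM) in 8 of 8 libraries, and Gpr6 was lowest at 9.40 ± 5.28 FPKM, below Rgs9 in 5 of 8. The D1 and D2 receptor genes were thus at like levels per length, and the indirect pathway held both the highest and the lowest member.

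Among the direct pathway genes, Drd1, which encodes the D1 dopamine receptor (ENSMUSG00000021478, chromosome 13, 54051183 to 54055705, mm10), had 63.8, 41.8, 28.2 and 96.7 CPM (counts scaled to library size) in replicates 1 to 4 labelled Nsun5-KO, against 19.0, 102, 59.6 and 75.7 CPM in WT replicates 1 to 4. Tac1, the precursor gene of substance P (ENSMUSG00000061762, chromosome 6, 7554879 to 7565834), had 52.9, 42.0, 24.9 and 100.7 CPM in libraries labelled Nsun5-KO and 39.3, 115, 66.2 and 79.2 CPM in WT. Pdyn, the precursor gene of the dynorphins (ENSMUSG00000027400, chromosome 2, 129686565 to 129699844), had 40.9, 33.9, 26.4 and 74.5 CPM in libraries labelled Nsun5-KO and 22.0, 65.5, 56.3 and 51.0 CPM in WT. In all 3 genes the groups overlapped, replicate 3 was the lowest and replicate 4 the highest library labelled Nsun5-KO, and replicate 1 was the lowest and replicate 2 the highest WT library.

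The indirect pathway genes followed the same libraries. Drd2, which encodes the D2 dopamine receptor (ENSMUSG00000032259, chromosome 9, 49340627 to 49408177), had 41.1, 29.2, 14.2 and 67.8 CPM in replicates 1 to 4 labelled Nsun5-KO and 15.1, 76.9, 42.0 and 64.9 CPM in WT replicates 1 to 4. Adora2a, the gene of the adenosine receptor that opposes D2 (ENSMUSG00000020178, chromosome 10, 75316877 to 75334784), had 58.2, 34.9, 14.5 and 87.3 CPM in libraries labelled Nsun5-KO and 13.3, 97.8, 77.6 and 84.2 CPM in WT. The lowest library of either group held less than the other 3 of its group in both receptor genes. Penk, the precursor gene of the enkephalins (ENSMUSG00000045573, chromosome 4, 4133531 to 4138819), had 195, 144, 77.5 and 345 CPM in libraries labelled Nsun5-KO and 83.2, 345, 275 and 299 CPM in WT. Gpr6, an orphan receptor that raises cAMP (ENSMUSG00000046922, chromosome 10, 41069977 to 41072285), had 13.7, 13.6, 5.66 and 22.4 CPM in libraries labelled Nsun5-KO and 4.54, 30.2, 17.2 and 28.1 CPM in WT. The groups overlapped in all 4 genes, with the same lowest and highest libraries as in the direct pathway genes.

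Both genes shared by the 2 kinds of neuron showed this order as well. Ppp1r1b, which encodes DARPP-32, the phosphatase inhibitor that relays dopamine signals (ENSMUSG00000061718, chromosome 11, 98348404 to 98357796), had 331, 226, 140.3 and 464 CPM in replicates 1 to 4 labelled Nsun5-KO and 87.9, 467, 365 and 456 CPM in WT. Rgs9, which encodes a regulator that ends signalling by the G proteins of receptors such as D2 (ENSMUSG00000020599, chromosome 11, 109225355 to 109298129), had 64.8, 44.8, 24.6 and 105 CPM in libraries labelled Nsun5-KO and 15, 125, 81.6 and 95 CPM in WT. In 9 of 9 members, replicate 3 was the lowest and replicate 4 the highest of the libraries labelled Nsun5-KO, and replicate 1 the lowest and replicate 2 the highest of WT. The 9 genes together took 0.0348% to 0.135% of counts in the libraries labelled Nsun5-KO and 0.0301% to 0.142% in WT. In bulk tissue, fewer medium spiny neurons in a sample and less of these RNAs per neuron cannot be told apart. The only overlapping genes, 1700003D09Rik at Ppp1r1b and A830012C17Rik at Penk, lie on the opposite strand and had at most 10 and 1 counts in a library.

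**Figure D1:**
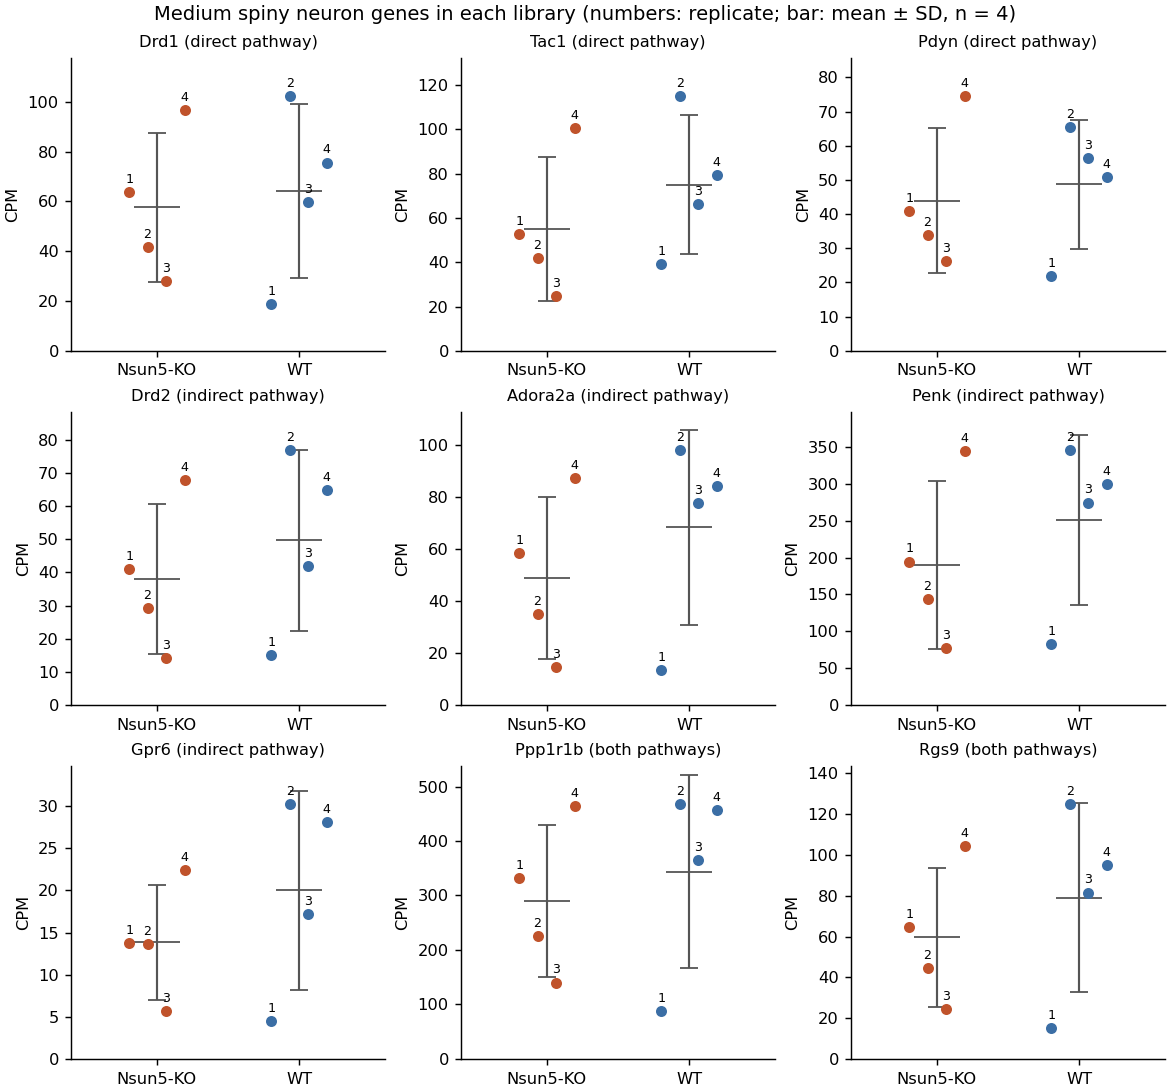
CPM (linear axis from 0) of the 9 genes in each library, with the libraries labelled Nsun5-KO left of WT, replicate numbers above the points and bars for mean ± SD (n = 4). In each panel replicate 3 labelled Nsun5-KO and WT replicate 1 lie lowest in their group, and the groups overlap.

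The difference between highest and lowest library within a group was several-fold and differed between members. Among the libraries labelled Nsun5-KO the highest over the lowest CPM was 2.82-fold for Pdyn and 6.0-fold for Adora2a. In WT it was 2.92-fold for Tac1, 2.98-fold for Pdyn, 7.34-fold for Adora2a and 8.32-fold for Rgs9. The pooled within-group SD of log2 CPM was 0.67 for Pdyn and 0.74 for Tac1, the smallest among the members, and 1.16 for Rgs9 and 1.24 for Adora2a, the largest. Penk (0.92), Drd1 (0.92), Ppp1r1b (0.97), Drd2 (1.0) and Gpr6 (1.06) lay between. This SD was 0.179 in the median tested gene, and in genes within 0.5 log2 CPM of a member the median lay between 0.109 and 0.174. An SD above 0.5 was found in 9 of 9 members and in 10.5% of all tested genes. The members' SDs stood at the 95.5 to 99.5 percentile of all tested genes.

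**Figure D2:**
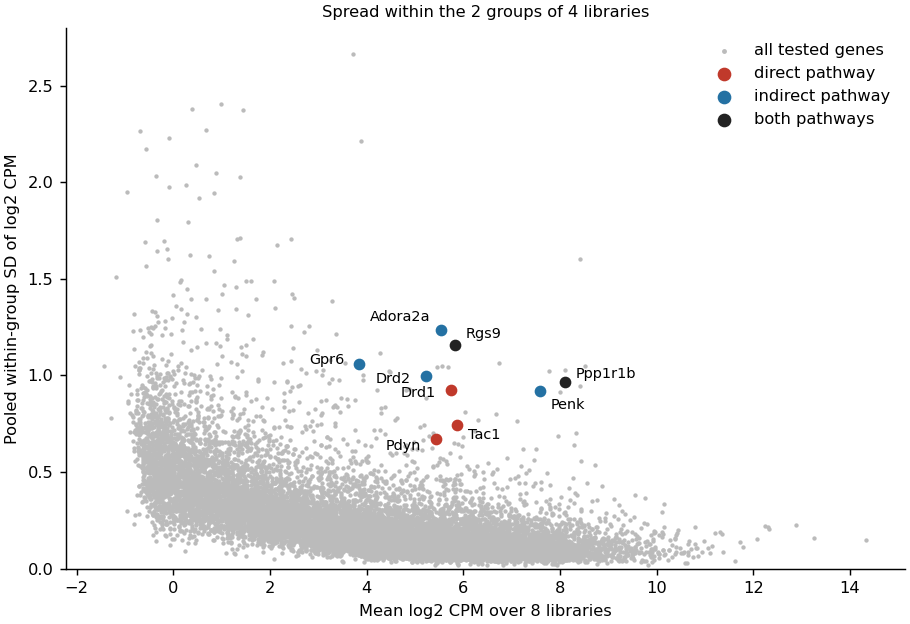
Pooled within-group SD of log2 CPM (2 groups of 4 libraries) against the mean log2 CPM over 8 libraries, with each grey point a tested gene and the 9 members coloured by pathway. The members lie between 0.67 for Pdyn and 1.24 for Adora2a, far above most genes of like level.

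The members varied together from library to library. Over the 8 libraries, Pearson's r of log2 CPM ranged from 0.85 to 0.99 across the 36 pairs of members (median 0.96), and Spearman's rho from 0.88 to 1.0, as a description of genes that share libraries. Pairs within the indirect pathway had r of 0.96 to 0.99, and pairs within the direct pathway 0.88 to 0.96. For Drd1 and Drd2, the receptor genes of the 2 pathways, r was 0.97 and rho 0.95, and r was 0.97 again without WT replicate 1 and replicate 3 labelled Nsun5-KO, the libraries farthest from the median of Drd1. For the peptide genes Tac1 and Penk, r was 0.95 and rho 1.0, and r was 0.93 without replicate 3 labelled Nsun5-KO and WT replicate 2. No p-value is given for these correlations, since the genes were chosen as markers of 1 class of neuron with results of these data known. Against the mean of the other 8 members, each member ranked among the 86 most similar of 16054 genes, from rank 3 for Penk (r = 0.99) to rank 86 for Tac1 (r = 0.91).

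The genes of most similar pattern were taken from 11786 tested genes outside the list with a mean of at least 5 CPM, by Pearson's r with the mean standardised log2 CPM over 8 libraries. For the direct members they were Tgfa, Gng7, Pde1b, Strip2 and Pde10a (r = 0.986 to 0.995). For the indirect members they were Nexn, Pde1b, Rarb, Lrrc10b and Slc35d3 (r = 0.985 to 0.994). Pde1b was in both sets. In all, 90 of the 11786 genes, or 0.764%, had r above 0.9 with the mean of the 9 members. Of 14 other genes of medium spiny neurons, 10 were among them.

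No member was called different between the genotypes. EdgeR's quasi-likelihood test called 0 of 9 members and 0% of the 16062 genes at an adjusted p below 0.05 (0 of 9 members and 10.4% of all genes at an unadjusted p below 0.05). DESeq2 called 0 of 9 members and 0.663% of genes. The groups did not overlap in 0 of 9 members, against 5.7% of all tested genes (2.71% lower in the libraries labelled Nsun5-KO). The fitted log2 fold change lay below 0 in 9 of 9 members and in 51.4% of all genes, and its median was -0.40 against -0.01 over all genes. Since the members share their libraries' highs and lows, these are not 9 separate observations.

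The intervals of the differences were wide. Drd1 averaged 57.6 ± 29.9 CPM in libraries labelled Nsun5-KO and 64.1 ± 34.9 CPM in WT (SD, n = 4 each), a log2 fold change of -0.15 (95% interval -1.54 to 1.24, edgeR adjusted p = 0.953). Drd2 averaged 38.1 ± 22.7 CPM in libraries labelled Nsun5-KO and 49.7 ± 27.3 CPM in WT, a log2 fold change of -0.38 (-1.88 to 1.12, edgeR adjusted p = 0.877). Neither receptor gene thus had a difference larger than the spread between libraries. Penk averaged 190.1 ± 114 CPM in libraries labelled Nsun5-KO and 251 ± 115 CPM in WT, at -0.40 (-1.80 to 1.0). Tac1 averaged 55.1 ± 32.5 CPM in libraries labelled Nsun5-KO and 74.9 ± 31.4 CPM in WT, at -0.44 (-1.64 to 0.76). The remaining log2 fold changes were -0.15 for Pdyn, -0.48 for Adora2a, -0.53 for Gpr6, -0.24 for Ppp1r1b and -0.40 for Rgs9. Exact two-sided permutation p-values of CPM ranged from 0.40 to 0.80, where the smallest that 4 against 4 libraries allow is 0.0286. Without replicate 4 labelled Nsun5-KO the median of the 9 was -0.82, and without replicate 3 of that label -0.14. Leaving out WT replicate 1 gave -0.69 and leaving out WT replicate 2 gave -0.10. Drd1 turned to 0.07 and Pdyn to 0.03 without replicate 3 labelled Nsun5-KO, and they turned to 0.16 and 0.02 without WT replicate 2.

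Direct and indirect pathway genes were then compared within each library. The mean log2 CPM of the direct members averaged 5.55 ± 0.74 in the libraries labelled Nsun5-KO and 5.80 ± 0.79 in WT, and that of the indirect members 5.35 ± 0.94 in the libraries labelled Nsun5-KO and 5.74 ± 1.14 in WT (SD, n = 4 each). The direct mean minus the indirect mean was 0.04, 0.06, 0.60 and 0.13 in replicates 1 to 4 labelled Nsun5-KO and 0.61, -0.04, -0.05 and -0.29 in WT replicates 1 to 4. The groups overlapped, with means of 0.21 ± 0.27 in the libraries labelled Nsun5-KO and 0.06 ± 0.38 in WT, a difference of 0.15 on the log2 scale. The highest values of both groups were in the libraries lowest in the members, replicate 3 labelled Nsun5-KO and WT replicate 1. The difference of 0.15 was 0.02 without replicate 3 labelled Nsun5-KO, 0.03 without WT replicate 4 and 0.33 without WT replicate 1. The balance of the pathways varied less than the levels, with a pooled within-group SD of 0.33 against 0.77 for the direct and 1.04 for the indirect mean. Because the members were chosen with results of these data known, no p-value is given for these means.

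**Figure D3:**
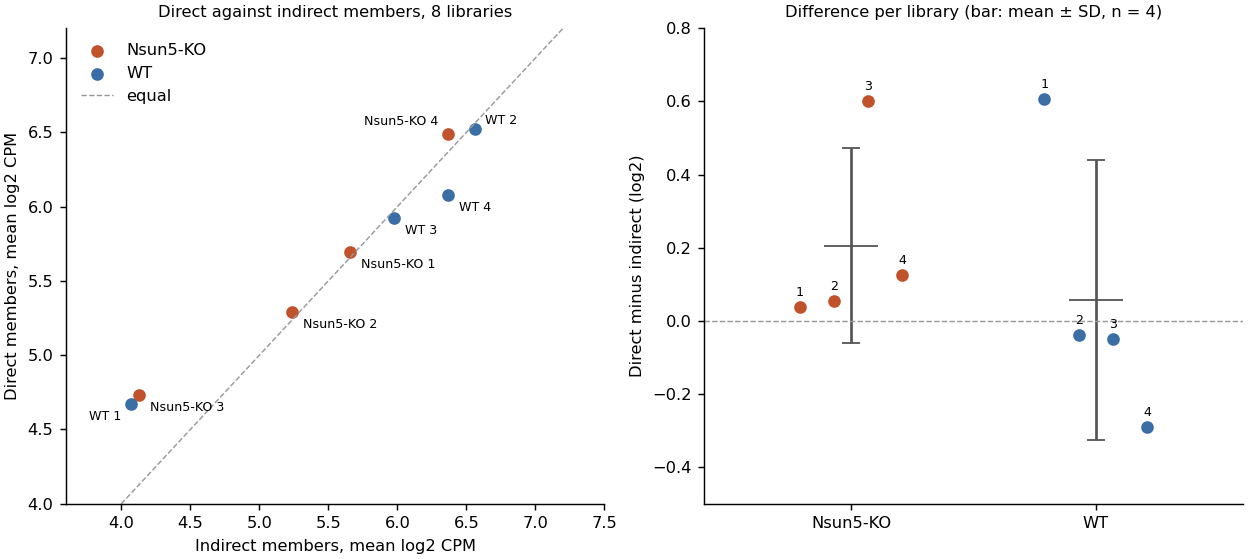
Left, mean log2 CPM of the 3 direct members against that of the 4 indirect members in each library, with a dashed line where they are equal. Right, their difference by library for the libraries labelled Nsun5-KO and for WT, with bars for mean ± SD (n = 4); replicate 3 labelled Nsun5-KO (0.60) and WT replicate 1 (0.61) lie above the other 6 libraries.

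Of the 12 ratios of a direct to an indirect member, 1 (8.33%) had groups that did not overlap, that of Drd1 to Drd2. Among all 36 pairs of members it was 2 (5.56%), the other being Drd1 to Tac1. Drd1 counts over Drd2 counts were 1.55, 1.43, 1.99 and 1.43 in replicates 1 to 4 labelled Nsun5-KO and 1.26, 1.33, 1.42 and 1.17 in WT replicates 1 to 4. The lowest ratio labelled Nsun5-KO, 1.43 in replicate 4 (95% exact Clopper-Pearson interval 1.32 to 1.54, counting error only), and the highest in WT, 1.42 in replicate 3 (1.29 to 1.57), differed by less than their counting error. The log2 ratio of CPM averaged 0.66 ± 0.22 in the libraries labelled Nsun5-KO and 0.37 ± 0.12 in WT (SD, n = 4 each). The pair was singled out after its values were seen, so that no test is given. The peptide pair Tac1 and Penk showed overlapping ratios, 0.272 to 0.321 in the libraries labelled Nsun5-KO and 0.241 to 0.472 in WT, the highest being WT replicate 1.

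Tac1 and Pdyn had the largest within-group spread around the mean of the other 8 members (pooled SD 0.39 and 0.38 on the log2 scale). Tac1 lay 0.88 above the mean log2 CPM of the other 8 members in WT replicate 1, against -0.32 to -0.08 in the libraries labelled Nsun5-KO and -0.29, -0.26 and about 0 in the other WT libraries. Pdyn minus that mean was 0.01 in replicate 3 labelled Nsun5-KO and -0.06 in WT replicate 1. In the other libraries it was -0.74 to -0.54 in those labelled Nsun5-KO and -1.0 to -0.52 in WT. Adora2a was low relative to the others in the lowest library of either group, Adora2a minus the other members being -0.95 in replicate 3 labelled Nsun5-KO and -0.87 in WT replicate 1. Rgs9 minus the other members was -0.10 in replicate 3 labelled Nsun5-KO and -0.68 in WT replicate 1, the lowest of the 8 libraries being WT replicate 1. In WT replicate 1, the score of midbrain dopamine neuron genes (4 of 6 tested, none at 0 in all libraries) was 1.79 above its mean over the 8 libraries. The summed level of all 6, the untested genes included, was 58.9 to 105 CPM in libraries labelled Nsun5-KO and 62.2 to 256 CPM in WT. Of the 4 tested genes, 3 had log2 fold changes below 0. Nr4a2, at 0.36, averaged 64.4 ± 24.0 CPM in libraries labelled Nsun5-KO and 50.0 ± 10.1 CPM in WT. It had 64.6 of the summed 256 CPM in WT replicate 1, a smaller part of the sum than in any other library. Th, Ddc and Slc18a2 were each highest in WT replicate 1, where Ddc had 43.8 CPM and Slc18a2 35.1 CPM. Nr4a2 was highest in replicate 3 labelled Nsun5-KO, at 91.9 CPM. Hypothalamic genes (8 of 13 tested, none at 0 in all libraries) summed to 15 to 24.8 CPM in libraries labelled Nsun5-KO and 33.1 to 155 CPM in WT. That sum covers all 13, the untested genes included. Dentate gyrus genes (5 of 5 tested, none at 0 in all libraries) summed to 20.8 to 44.4 CPM in libraries labelled Nsun5-KO and 21.3 to 67.8 CPM in WT. The part of these regions in the Tac1 and Pdyn values was not tested.

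Other genes of medium spiny neurons, in lists also chosen with earlier results of these data known, had their lowest mean score in the same libraries. The list of 14 genes shared by both kinds of neuron, among them the transcription factor genes Foxp1 and Bcl11b, had scores of 0.17, -0.24, -0.59 and 0.59 in replicates 1 to 4 labelled Nsun5-KO and -1.03, 0.61, 0.10 and 0.38 in WT, relative to the mean of the 8 libraries. Its median log2 fold change was -0.11, with 9 of 14 below 0 and 0 called. Since edgeR called 0% of all 16062 genes, a count of 0 called says nothing particular about this or the following lists. Kcnip2, a potassium channel partner, was at 0.16 and Rarb, a retinoic acid receptor gene, at -0.38, the genes of that list with the smallest p. Of 23 genes of cAMP and DARPP-32 signalling, 10 lay below 0, 13 above and 0 were called, with a median of 0.01. Among these the smallest p-values were those of Prkar1b, a regulatory subunit of protein kinase A, at 0.19 (edgeR adjusted p = 0.406) and Cdk5r1, the activator of the kinase that phosphorylates DARPP-32, at 0.14 (edgeR adjusted p = 0.485). The list held genes that followed the members across libraries, 7 of 23 having r above 0.9, such as the phosphodiesterase gene Pde10a at 136 to 479 CPM in libraries labelled Nsun5-KO and 97.7 to 480 CPM in WT.

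Other pathway-specific genes gave a mixed picture. Of 7 further direct pathway genes, 5 lay below 0 and 0 were called (median -0.19). Isl1, a transcription factor of direct pathway neurons, had 2.45, 1.30, 0.684 and 4.26 CPM in libraries labelled Nsun5-KO and 2.73, 7.5, 4.17 and 5.90 CPM in WT (log2 fold change -1.21, SE 0.51, edgeR adjusted p = 0.459). Eya1 was at -0.33 (edgeR adjusted p = 0.461). Isl1 is also expressed in the hypothalamus, whose 8 tested genes all lay below 0 (summed levels of all 13 listed genes above). The part of that region in the Isl1 value was not tested. Of 5 further indirect pathway genes, 3 lay below 0 and edgeR called 0. Sp9, a transcription factor of indirect pathway neurons, had 8.74, 4.37, 7.03 and 10.2 CPM in libraries labelled Nsun5-KO and 6.86, 16.1, 11.2 and 17.9 CPM in WT (log2 fold change -0.78, SE 0.33, edgeR adjusted p = 0.469). Plxdc1 had 39.0, 37.6, 32.0 and 30.6 CPM in libraries labelled Nsun5-KO and 18.1, 20.1, 26.3 and 25.8 CPM in WT (log2 fold change 0.62, SE 0.13, edgeR adjusted p = 0.307). It did not overlap between the groups, was called by DESeq2 (adjusted p = 0.0109), and did not follow the members across libraries (r = 0.04). The mean of the further direct genes minus that of the further indirect genes differed by -0.02 between the genotypes (pooled SD 0.19). These genes followed the members unevenly, from r = -0.27 for Eya1 to 0.99 for Slc35d3. Of 6 further direct genes with a mean of at least 5 CPM, 1 had r above 0.9 with the members' mean (median 0.44). Of 4 such indirect genes it was 0 (median 0.41). Isl1 and Upb1, below that level but part of the means compared, had r of 0.78 and 0.91. With genes that followed the members so unevenly, this difference says little about the balance of the pathways.

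Receptors and enzymes of the peptides were tested as a further list. Of 9 receptor and processing genes, 6 lay below 0 and 0 were called. Pcsk2, a convertase that cuts the peptide precursors, averaged 457 ± 19.2 CPM in libraries labelled Nsun5-KO and 372 ± 38.6 CPM in WT (log2 fold change 0.30, SE 0.08, edgeR adjusted p = 0.313), and Oprd1, the delta opioid receptor on which enkephalins act, was at 0.33 (edgeR adjusted p = 0.436). Of 7 tested relatives of the member receptors, 5 lay above 0 and 0 were called. Adora1, the A1 adenosine receptor gene, averaged 206 ± 15.7 CPM in libraries labelled Nsun5-KO and 164 ± 26.6 CPM in WT (log2 fold change 0.33, SE 0.11, edgeR adjusted p = 0.382), and Drd3 averaged 0.423 ± 0.441 CPM in libraries labelled Nsun5-KO and 1.02 ± 0.594 CPM in WT. The median pooled SD of log2 CPM was 0.23 in the peptide list and 0.29 in the receptor list, against 0.97 in the 9 members, though Drd3 at 0.92 and Tacr1, a receptor gene for substance P, at 0.67 were as high as some members.

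Genes of neighbouring regions and cells moved with the libraries in other ways. Cortical genes (9 of 9 tested, none at 0) summed to 1786 to 2304 CPM in libraries labelled Nsun5-KO and 1323 to 1813 CPM in WT, with 9 of 9 above 0. Thalamic genes (8 of 8 tested) summed to 115 to 331 CPM in libraries labelled Nsun5-KO and 205 to 257 CPM in WT. Their scores in the libraries lowest in the members were 0.36 for cortex and -0.33 for thalamus in replicate 3 labelled Nsun5-KO, and -0.22 and -0.06 in WT replicate 1. Choroid plexus genes (9 of 9 tested) summed to 56.0 to 1204 CPM in libraries labelled Nsun5-KO and 316 to 1186 CPM in WT, and oligodendrocyte genes (7 of 7 tested) to 4477 to 6154 CPM in libraries labelled Nsun5-KO and 6861 to 7478 CPM in WT. Genes of striatal cholinergic neurons, the large interneurons of this region, followed the members, with scores of -1.94 in replicate 3 labelled Nsun5-KO and -0.97 in WT replicate 1. The genes of that list with the smallest p were Lhx8 at -1.91 (edgeR adjusted p = 0.496) and the acetylcholine transporter gene Slc18a3 at -0.89 (edgeR adjusted p = 0.677), and 0 of 5 were called. The part of these regions and cells in the members' values was not tested.

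**Figure D4:**
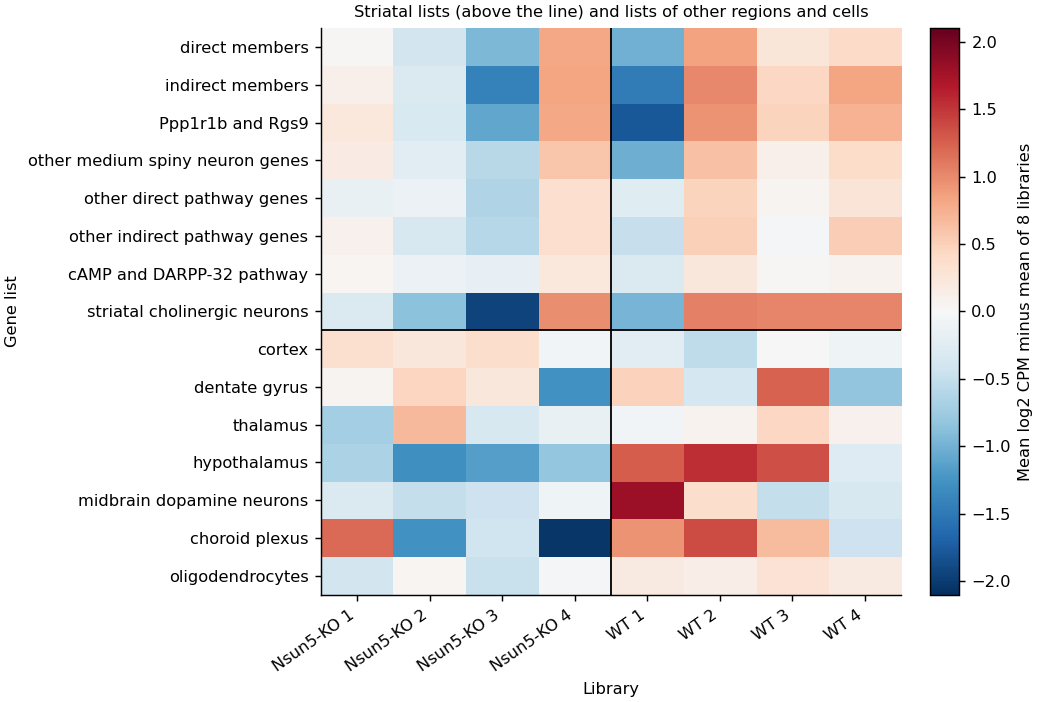
Mean log2 CPM of each gene list minus its mean over the 8 libraries (colour), for the libraries labelled Nsun5-KO on the left and WT on the right. The striatal lists above the line are lowest within their group in replicate 3 labelled Nsun5-KO and in WT replicate 1, and the lists below the line have other patterns.

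An alternative chosen after seeing the data fitted genotype with the mean log2 CPM of the 14 other medium spiny neuron genes as a covariate, which compares the members at a like level of those genes. The standard error of Drd1 was 0.07 in that fit against 0.58 without the covariate, and its log2 fold change was -0.02 (95% interval -0.16 to 0.13). Drd2 was at -0.29 (-0.52 to -0.05, edgeR adjusted p = 0.390), Penk at -0.36 (-0.62 to -0.11, edgeR adjusted p = 0.346) and Tac1 at -0.46 (-0.85 to -0.07, edgeR adjusted p = 0.400). These 3 of 9 members had an unadjusted p below 0.05, as had 10.9% of all tested genes, and 0 members and 0% of all genes were called. Pdyn was at -0.11, Adora2a at -0.36, Gpr6 at -0.31, Ppp1r1b at -0.08 and Rgs9 at -0.19, with intervals that held 0. The covariate was read from the same 8 libraries and leaves 5 residual degrees of freedom. Of its 14 genes, 9 lay below 0 and 5 above. Kcnip2, Ano3 and Foxp1 followed the members least (r = 0.57, 0.76 and 0.82). Their log2 fold changes were 0.16, 0.11 and 0.11, and their part in the adjusted values was not tested.

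**Figure D5:**
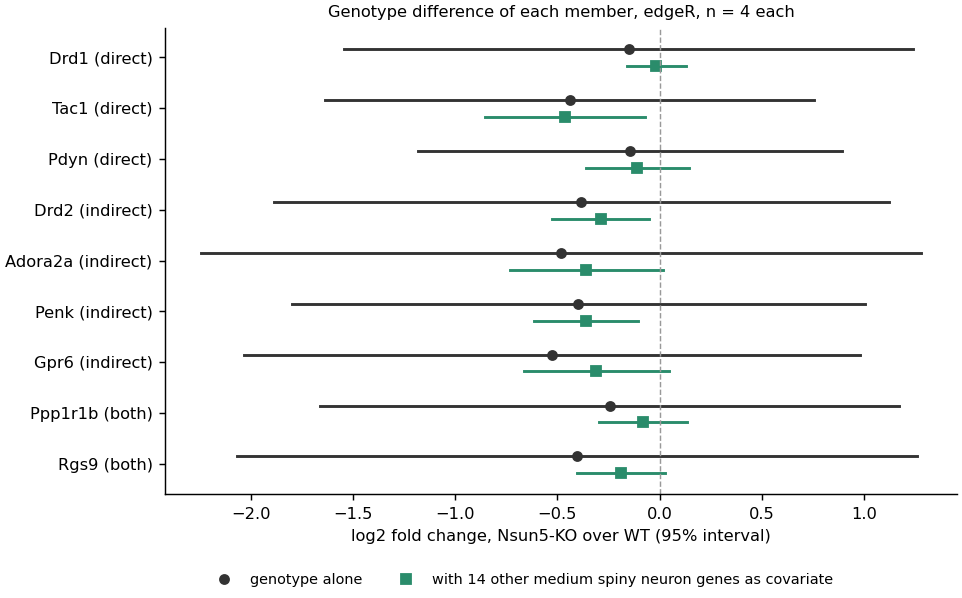
Log2 fold change of each member, libraries labelled Nsun5-KO over WT, with 95% intervals from edgeR (n = 4 each), from genotype alone (circles) and with 14 other medium spiny neuron genes as a covariate (squares). Each interval from genotype alone spans 0, and with the covariate those of Drd2, Penk and Tac1 do not.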

How the data were processed

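The labels' protocols name TRIzol extraction and the NEBNext Ultra RNA Library Prep Kit, a kit that leaves strand unmarked. Alignment was by HISAT2 2.0.5 to mm10, per the submitters' processing notes; the counting program is not given in the sources used here. Raw counts per gene (whole numbers) and FPKM values were deposited by the authors. Each deposited FPKM value is the count over gene length, scaled per library by 0.981 to 1.02 times the library total.

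The test was edgeR 4.0.16 (R 4.3.3) with filterByExpr by group, TMM scaling, robust quasi-likelihood F test of genotype over all 8 libraries, with Benjamini-Hochberg adjustment over 16062 genes. CPM used TMM-scaled library sizes, and log2 CPM a prior count of 2. Scores are means of log2 CPM over the tested genes of a list. Summed levels cover all genes of a list, tested or not. Permutation tests of CPM used all 70 labelings. Counting intervals and depth cover counting error only. The pipeline was tested on simulated data.

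The 9 members and the gene lists were chosen with earlier results of these data known. All members are named; of each other striatal list, called genes or otherwise the 2 with the smallest p; and 5 genes of most similar pattern per pathway. Foxp1, Bcl11b, Pde10a and Tacr1 were named as examples after their values were seen. Gpr52, of the indirect list, was not analysed here. Alternatives were DESeq2 1.42.0, RLE scaling, no low-count filter, limma 3.58.1 on log2(FPKM + 1) and log2(FPKM + 0.1), a replicate block and left-out libraries.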

Additional observations from a re-analysis of the deposited data

Results flagged for a closer look

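The direct minus indirect mean of replicate 3 labelled Nsun5-KO was 0.601 on the log2 scale, far from the other 3 libraries labelled Nsun5-KO (0.04, 0.06 and 0.13). It was the single value to stand apart by Dixon's criterion (critical value 0.829 for 4 samples) among 20 groups checked, the 9 members' CPM and this difference in each genotype, and chance flags about 1 in 20 groups. WT replicate 1 had 0.61, in a group that ran down to -0.29.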

How the results depend on the processing

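The edgeR count of called genes, 0 of 16062, became 94 with DESeq2 and 68 without the low-count filter, and 0 to 2 with single libraries left out (2 without replicate 4 labelled Nsun5-KO); the cause was not tested. The count of called members was 0 of 9 under every alternative run, the 2 added ones included, with edgeR, DESeq2 or limma adjusted p of 0.346 to 0.9999. The median of the 9 members ranged from -0.82 to -0.10 and the direct minus indirect difference from 0.02 to 0.33 with single libraries left out. In the same fits Drd1 ranged from -0.52 to 0.16 and Pdyn from -0.53 to 0.033. Without replicates 1 and 3 labelled Nsun5-KO, Drd1 was at 0.11, Pdyn at 0.15 and Ppp1r1b at 0.00199, and the median was -0.04; the cause was not tested. Without WT replicates 1 and 2 the median was -0.50 and the direct minus indirect difference 0.38. Without both replicate 3 labelled Nsun5-KO and WT replicate 1, an alternative added after seeing the data, they were -0.41 and 0.20. Limma on log2(FPKM + 1) and on log2(FPKM + 0.1) put the median at -0.34 and -0.36. The replicate block gave a median of -0.39 and 0 called members or genes. Same-numbered libraries did not deviate together (r of their deviations -0.21 to 0.06). So few values cannot tell whether the numbers pair the samples.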
